A study of Mus musculus with 16 samples.

Results

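Receptor subunits through which growth and differentiation cytokines reach mast cells were described across 2 genotypes and 4 treatments: *Il3ra*, *Csf2ra*, *Csf2rb*, *Csf2rb2*, *Il4ra*, *Il13ra1*, *Il2rg*, *Il9r*, *Il6ra* and *Il10ra*. They were chosen by gene symbol, and all 10 members were found among the 39179 genes counted in each library. Of these, 8 had enough reads to be tested.

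The RNA came from bone marrow derived mast cells (BMMCs), which are mast cells grown from the marrow of male C57BL/6 mice aged 8 to 10 weeks. The marrow was cultured for 4 weeks in stem cell factor and IL-3 at 5 ng/ml, so every group, controls included, was grown on a ligand of the receptors studied. The mice were PEP+/+ (wild type) or PEP-/-, which lack PEP, the protein tyrosine phosphatase encoded by *Ptpn22*, and each genotype gave 4 groups of 2 libraries, 16 in all. IgE groups were sensitized with IgE at 0.05 µg/ml for 3 h by the labels, a dose that differs from the one in the study's methods. IgE DNP groups were in addition activated with the antigen DNP (dinitrophenol) at 200 ng/ml for 1 h. IgE DEX groups received the glucocorticoid dexamethasone (DEX) at 100 nM for 8 h and IgE for 3 h, and IgE DNP DEX groups received all 3 agents. No group was left without IgE, and the labels do not say whether the 2 libraries of a group came from separate animals or cultures.

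Cytokine receptors of this family have no kinase of their own. A ligand-specific alpha chain captures the cytokine and pairs with a signalling chain, and the bound JAK kinases then phosphorylate STAT factors, which switch on survival genes and feedback inhibitors. IL-3 is the classical growth factor of mouse mast cells in culture, and IL-4, IL-9, IL-10 and IL-13 are known to shape their growth, proteases or mediator release. Mice are unusual in carrying a pair of neighbouring beta chain genes: *Csf2rb* encodes the common beta chain of the IL-3, GM-CSF and IL-5 receptors, and *Csf2rb2* encodes a beta chain that serves IL-3 alone.

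The libraries held 8612531 to 22143526 reads assigned to genes. *Ptpn22* had 130 to 2799 reads in PEP+/+ libraries and 0 to 55 in PEP-/- libraries. All 12 mast cell markers examined were detected, with a summed level of 68019 to 107190 CPM (counts scaled to a common library size). The sum was 68019 to 76858.5 CPM after IgE and 75995 to 90498 CPM after IgE DNP. It was 74129 to 82716.5 CPM after IgE DEX and 84115 to 107190 CPM after IgE DNP DEX. The part of this shift in the receptor results was not tested. *Cpa3*, *Kit* and *Fcer1a* were high in every library, but levels were uneven within the list. *Cpa3* was at 31678 to 57856 CPM and *Mcpt4* at 4.56 to 18.5 CPM. *Tpsab1* ranged from 1.66 to 162 CPM and *Hdc* from 62.8 to 1796 CPM. Of the 7 macrophage and monocyte markers 4 passed the read filter, with a summed level of 8.75 to 95.1 CPM, and both basophil markers passed, at 19.8 to 122 CPM. The summed markers reached 0.0820 CPM for eosinophils, 0.305 for T cells, 0.825 for B cells, 2.37 for neutrophils, 3.15 for dendritic cells and 10.5 CPM for erythroid cells. The titles of the libraries give a number to the first library of each group and a letter to the second, here called the numbered and lettered sets. Reads outside annotated genes took 4.69% to 7.18% of the numbered libraries and 8.35% to 10.98% of the lettered ones, and the sets are therefore shown apart wherever a gene differed between them.

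Levels were compared between genes per kilobase of exon in the 4 IgE libraries, both genotypes together. The length was that of all annotated exons of a gene together, such as 4740 bases for *Csf2rb2* and 7277 for *Csf2rb*. The order therefore depends on the annotation as well as on the reads. The IL-3 beta chain gene *Csf2rb2* stood highest, at 1235 ± 39.1 CPM per kb (SD, n = 4). *Csf2rb* followed at 502 ± 38.4 and *Il4ra*, the chain that binds IL-4, at 201 ± 16.9 CPM per kb. Below these beta chains and *Il4ra*, *Il10ra*, the ligand-binding chain for IL-10, was at 72.4 ± 5.24 CPM per kb. *Il2rg*, the common gamma chain shared by the receptors for IL-2, IL-4, IL-9 and others, was at 42.6 ± 6.55 CPM per kb, and its range overlapped that of *Il3ra*, the IL-3 alpha chain, at 29.4 ± 7.48. *Il9r*, the IL-9 binding chain, was at 6.20 ± 1.02 CPM per kb and overlapped *Csf2ra*, the GM-CSF alpha chain, at 5.95 ± 3.38. No other neighbours in this order overlapped, apart from the last 2, *Il13ra1* and *Il6ra*, which had no reads in these 4 libraries.

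**Figure D1:**
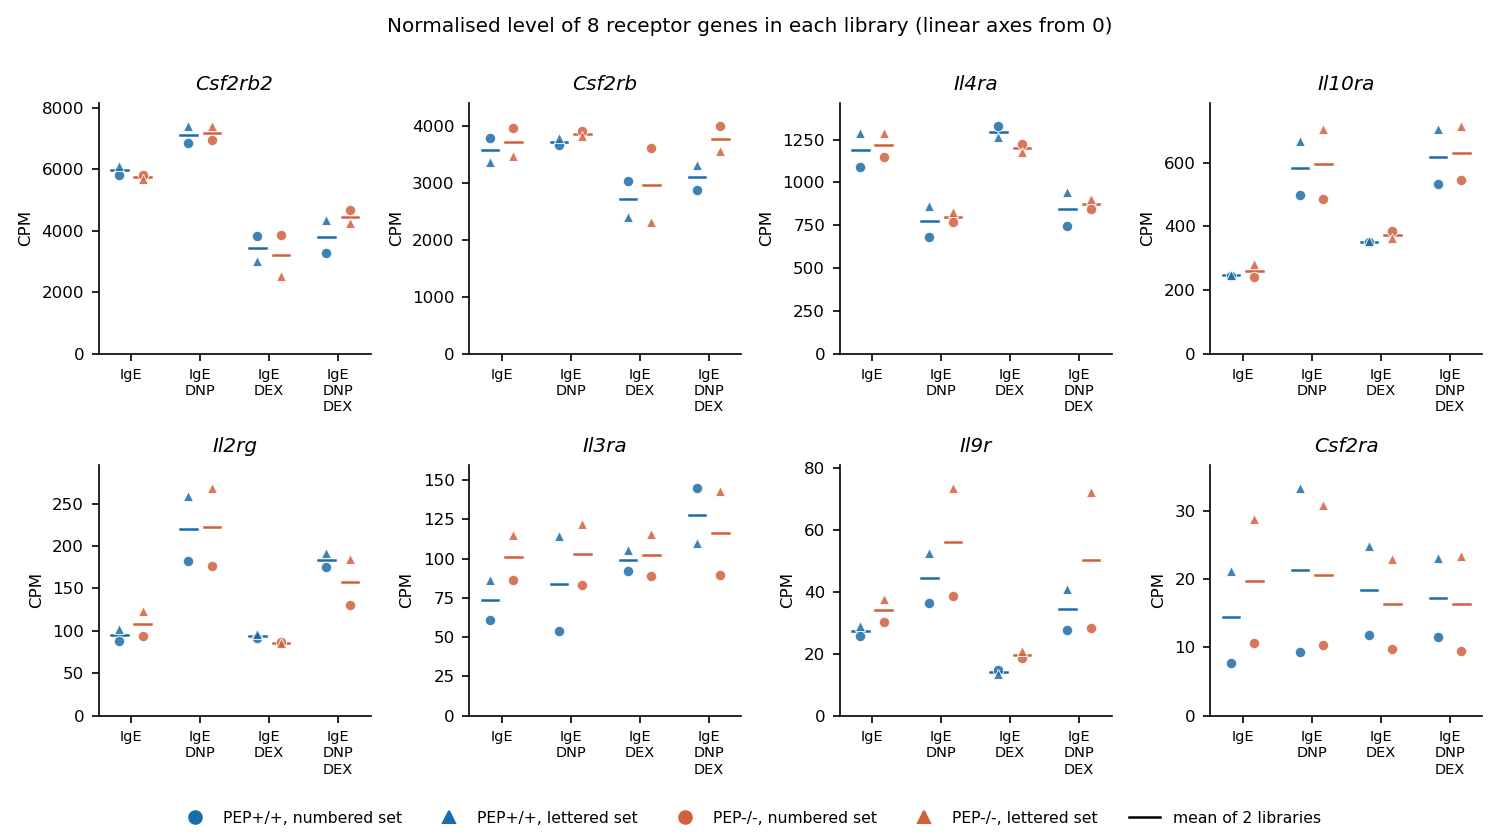
The normalised level in CPM of the 8 tested receptor genes is plotted for each library by treatment, each panel on its own linear axis from 0. Blue marks PEP+/+, orange PEP-/-, circles the numbered set, triangles the lettered set and bars the mean of 2 libraries. *Il10ra* and *Il2rg* sit higher and *Il4ra* lower in the DNP groups, *Csf2rb2* sits lower in the DEX groups, and the *Csf2ra* libraries split by set rather than by treatment.

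Fold changes were averaged over both genotypes and tested with edgeR's quasi-likelihood test, with Benjamini-Hochberg adjustment over all 13305 genes tested. A gene was called at an adjusted p under 0.05. Where values are given in pairs, the numbered library comes first and the lettered one second. DNP without DEX compares IgE DNP with IgE, DNP with DEX compares IgE DNP DEX with IgE DEX, DEX without DNP compares IgE DEX with IgE, and DEX with DNP compares IgE DNP DEX with IgE DNP. Each of these 4 comparisons shares 4 libraries with each of 2 others, so that they are not independent of each other. Because bulk RNA was measured, fewer cells of a type and less RNA per cell cannot be told apart.

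DNP raised *Il10ra* and *Il2rg* and lowered *Il4ra*, with and without DEX. Without DEX 3 of the 8 tested members were called, against 16.7% of all genes tested. With DEX 4 of 8 were called, *Il9r* in addition, against 12.6% of all genes. The median log2 fold change of the 8 members was 0.30 without DEX. It was also 0.30 with DEX. The median of all genes lay between -0.025 and 0.0011 in the 4 treatment comparisons. Of the 4 dendritic cell markers 1 passed the read filter, *Xcr1*. They summed to 0.147 to 0.607 CPM after IgE and 1.13 to 3.15 CPM after IgE DNP, and with DEX to 0.407 to 0.799 CPM without and 0.782 to 1.69 CPM with DNP. The part of such cells in the DNP results was not tested.

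*Il10ra* (chromosome 9, 45253837 to 45269149 on the minus strand of GRCm38) encodes the chain that binds the inhibitory cytokine IL-10. In PEP+/+ cells its level was 245 and 246 CPM after IgE and 500.0 and 667 CPM after IgE DNP. The PEP-/- libraries were at 241 and 280 CPM after IgE and 485 and 706 CPM after IgE DNP. Every IgE DNP library was above every IgE library. The log2 fold change was 1.22 (SE 0.17, edgeR adjusted p = 0.00051). With DEX the level went from 351 and 353 to 533 and 705 CPM in PEP+/+ and from 384 and 363 to 546 and 717 CPM in PEP-/- cells. Again the groups did not overlap, and the log2 fold change was 0.79 (SE 0.17, edgeR adjusted p = 0.011).

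*Il2rg* (chromosome X, 101264378 to 101268255, minus strand) encodes the common gamma chain. The gene overlaps the annotated gene *Gm20489* on the same strand, which had 0 reads in all 16 libraries. How reads that fall in both were counted was not given in the sources used here. In PEP+/+ cells *Il2rg* was at 87.5 and 102 CPM after IgE and at 182 and 259 CPM after IgE DNP. The PEP-/- libraries held 93.6 and 123 CPM after IgE and 177 and 269 CPM after IgE DNP. All IgE DNP libraries lay above all IgE libraries, with a log2 fold change of 1.13 (SE 0.18, edgeR adjusted p = 0.0015). With DEX it rose from 91.2 and 96.3 to 175 and 192 CPM in PEP+/+ cells and from 86.3 and 85.4 to 130 and 185 CPM in PEP-/- cells. The log2 fold change was 0.92 (SE 0.18, edgeR adjusted p = 0.0070), and all 4 differences within a set and genotype were upward.

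*Il4ra* (chromosome 7, 125552120 to 125579474, plus strand) encodes the IL-4 binding chain, which with the gamma chain forms the type I IL-4 receptor. Its level was 1090 and 1292 CPM after IgE and 683 and 863 CPM after IgE DNP in PEP+/+ cells. In PEP-/- cells it was 1147 and 1288 CPM after IgE and 770 and 826 CPM after IgE DNP. The groups did not overlap, and the change was in the opposite direction to that of its partner *Il2rg*: the log2 fold change was -0.62 (SE 0.13, edgeR adjusted p = 0.0085). With DEX the level fell from 1333 and 1263 to 747 and 944 CPM in PEP+/+ cells and from 1226 and 1181 to 845 and 902 CPM in PEP-/- cells. The log2 fold change was -0.54 (SE 0.13, edgeR adjusted p = 0.023), and all 4 same-set differences were downward. This call was lost in 7 of the 16 fits that left out 1 library, with adjusted p-values up to 0.086. These were the fits without any 1 of the IgE DEX and IgE DNP DEX libraries except the lettered PEP+/+ IgE DNP DEX library, and over all 16 fits the value lay between -0.61 and -0.44. Over the 8 group means of log2 CPM, *Il4ra* and *Il2rg* had a Pearson correlation of -0.97, a description over means that share the treatments.

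The 250 bases before the RefSeq start of *Il2rg* and of *Il4ra* are shown because the genes encode partner chains and moved in opposite directions after DNP. They are RefSeq sequences on GRCm38.p6, 5′ to 3′ on the strand of the gene, at chrX:101268256-101268505 (minus strand) and chr7:125552021-125552270 (plus strand). The annotation used for the gene positions above puts the start of *Il4ra* at 125552120, inside the window, so that the last part of the window lies within the gene by that annotation.
Il2rg: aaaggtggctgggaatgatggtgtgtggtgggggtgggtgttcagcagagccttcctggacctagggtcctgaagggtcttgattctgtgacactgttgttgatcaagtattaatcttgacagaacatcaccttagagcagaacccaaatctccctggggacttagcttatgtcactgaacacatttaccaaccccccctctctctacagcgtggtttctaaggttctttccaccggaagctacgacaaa
Il4ra: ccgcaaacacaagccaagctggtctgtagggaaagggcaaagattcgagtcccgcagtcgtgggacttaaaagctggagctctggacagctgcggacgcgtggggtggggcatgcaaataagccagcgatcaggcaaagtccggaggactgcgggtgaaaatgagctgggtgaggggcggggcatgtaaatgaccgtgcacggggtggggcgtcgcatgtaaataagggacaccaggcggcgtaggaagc
Neither window held any of the 5 motifs searched on both strands, which were AGATAA for the GATA factors, TTCNNNGAA for STAT factors, ACANNNTGT for the glucocorticoid receptor, TGANTCA for AP-1 and GGAAGT for ETS factors. No match says only that these letters are not in the window.

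*Il9r* (chromosome 11, 32187541 to 32200279, minus strand) encodes the chain that binds IL-9, a mast cell growth factor, and pairs with the gamma chain. It had the widest range among the members. In PEP+/+ cells the IgE libraries were at 25.7 and 29.1 CPM and the IgE DNP libraries at 36.2 and 52.4 CPM, against 14.7 and 13.5 CPM for IgE DEX and 27.6 and 40.9 CPM for IgE DNP DEX. In the same order the PEP-/- pairs were at 30.3 and 37.6, 38.5 and 73.5, 18.5 and 20.95, and 28.4 and 72.1 CPM. The lowest 4 libraries were the IgE DEX libraries, and the highest 2 were the lettered PEP-/- libraries that received DNP. DNP with DEX gave a log2 fold change of 1.32 (SE 0.30, edgeR adjusted p = 0.014). That call was lost when the numbered PEP-/- IgE DEX, the lettered PEP+/+ IgE DEX or the lettered PEP-/- IgE DNP DEX library was left out, with values of 1.27, 1.29 and 0.92 and adjusted p-values of 0.057, 0.062 and 0.053.

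For 3 other comparisons of *Il9r* the call turned on whether the 2 sets were a term of the model (a replicate block). DNP without DEX gave a log2 fold change of 0.71 (SE 0.29, edgeR adjusted p = 0.14), and 0.67 under the block (edgeR adjusted p = 0.0087). DEX without DNP gave -0.87 (SE 0.30, edgeR adjusted p = 0.10), and -0.86 under the block (edgeR adjusted p = 0.0031). All 4 same-set differences went in the direction of the estimate in both. The difference between genotypes is the third of them and is given with the genotype results.

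The promoter of *Il9r* is shown because it is 1 of the 2 member promoters with a GATA motif, at chr11:32200280-32200529 (minus strand, GRCm38.p6, RefSeq). Capitals mark AGATAA, or TTATCT where it is read from the other strand.
Il9r: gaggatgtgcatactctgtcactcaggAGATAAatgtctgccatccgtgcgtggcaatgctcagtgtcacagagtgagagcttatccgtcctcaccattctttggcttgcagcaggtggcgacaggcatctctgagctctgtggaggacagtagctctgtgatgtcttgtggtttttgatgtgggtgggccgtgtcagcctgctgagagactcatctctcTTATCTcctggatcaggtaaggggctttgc
The 2 matches lie 218 to 223 and 25 to 30 bases before the start. The *Il6ra* promoter held the motif as well, so that 2 of the 8 member promoters in the reference had it, against 10.3% of all 27025 promoters. No promoter of *Csf2rb* or *Il10ra* was used here. No member promoter held the glucocorticoid receptor or AP-1 motif, which 5.91% and 6.87% of all promoters hold. The ETS motif was in *Il3ra*, *Il13ra1* and *Il6ra* and in 19.99% of all promoters. A match is a description of letters, not evidence of binding.

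The 5 genes whose 8 group means of log2 CPM were most like those of *Il9r* were *Me2* (Pearson r = 0.99), ENSMUSG00000096334 (0.98), *Sema4c* (0.98), *Por* (0.97) and *Plekha2* (0.97). Over the 16 single libraries the correlation was 0.94 for *Por*, 0.87 for ENSMUSG00000096334 and 0.80 for *Sema4c*. It was 0.37 for *Plekha2* and 0.14 for *Me2*, so that the likeness of the last 2 was in the means alone.

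DEX lowered *Csf2rb2*, with and without DNP. It was the only member called for DEX in the fit without the block, 1 of 8 in each comparison, against 9.37% of all genes without DNP and 10.7% with DNP. The median log2 fold change of the 8 members was -0.07 without DNP and -0.21 with DNP.

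*Csf2rb2* (chromosome 15, 78282507 to 78305721, minus strand) was at 5820 and 6114 CPM after IgE and at 3823 and 3009 CPM after IgE DEX in PEP+/+ cells. In PEP-/- cells it was at 5811 and 5673 CPM after IgE and at 3867 and 2511 CPM after IgE DEX. No IgE DEX library reached the lowest IgE library, and the log2 fold change was -0.83 (SE 0.17, edgeR adjusted p = 0.0091). With DNP the level was 6850 and 7393 CPM without DEX and 3257 and 4353 CPM with it in PEP+/+ cells. The same pairs of PEP-/- libraries were at 6949 and 7412, and at 4676 and 4235 CPM. The groups again did not overlap, and the log2 fold change was -0.80 (SE 0.17, edgeR adjusted p = 0.011). Over the 16 fits that left out 1 library the value lay between -0.997 and -0.683 without DNP and between -0.893 and -0.679 with DNP. The 7 macrophage and monocyte markers, a cell type that also uses these beta chains, summed to 18.6 to 95.1 CPM after IgE and 10.3 to 36.0 CPM after IgE DEX, and to 13.2 to 73.0 and 8.75 to 34.5 CPM in the DNP groups without and with DEX. Of these markers *Ccr2* reached 68.4 CPM, *Cd163* reached 21.1 CPM and *Adgre1* reached 6.38 CPM, while *Csf1r* and *Marco* stayed at or below 1.05 CPM, and the part of such cells in the result was not tested. DNP changed *Csf2rb2* by 0.29 without DEX (95% confidence interval, CI, -0.08 to 0.66, edgeR adjusted p = 0.31) and by 0.32 with DEX (95% CI -0.05 to 0.69, edgeR adjusted p = 0.26) on the log2 scale, neither of which was called.

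The *Csf2rb2* promoter is shown because the gene carries the DEX result and because its window was the only member promoter with a STAT motif, which 7.18% of all promoters hold. It lies at chr15:78305722-78305971 (minus strand, GRCm38.p6, RefSeq), with TTCNNNGAA in capitals.
Csf2rb2: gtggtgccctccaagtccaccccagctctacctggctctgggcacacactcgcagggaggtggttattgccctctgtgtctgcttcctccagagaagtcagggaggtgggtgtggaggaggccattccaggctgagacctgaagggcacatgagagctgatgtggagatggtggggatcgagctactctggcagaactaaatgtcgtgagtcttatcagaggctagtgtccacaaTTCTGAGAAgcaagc
The match lies 7 to 15 bases before the start.

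*Csf2rb* (chromosome 15, 78325752 to 78353847, plus strand), the common beta chain, is a near copy of *Csf2rb2*. Of the 50-base stretches of its transcripts 12.3% also occur in *Csf2rb2*, and 18.4% of those of *Csf2rb2* occur in *Csf2rb*. A read of that length from such a stretch cannot by itself be placed in 1 of the genes. The reads were paired, and the other read of a pair may place it, which was not tested. The split between the genes is therefore uncertain for an unknown share of that part. In PEP+/+ cells *Csf2rb* was at 3800 and 3363 CPM with IgE and 3666 and 3793 CPM with IgE DNP, against 3037 and 2406 CPM with IgE DEX and 2882 and 3315 CPM with IgE DNP DEX. The PEP-/- pairs, in the same order, were at 3964 and 3474, 3909 and 3832, 3614 and 2307, and 4010 and 3556 CPM. The lettered IgE DEX libraries were the 2 lowest. DEX without DNP gave a log2 fold change of -0.36 (SE 0.16, edgeR adjusted p = 0.25), and -0.37 under the replicate block (edgeR adjusted p = 0.046). DEX with DNP gave -0.15 (95% CI -0.51 to 0.21). DNP gave 0.06 without DEX (95% CI -0.30 to 0.41) and 0.27 with DEX (95% CI -0.09 to 0.63), neither of them called.

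With the reads of both beta chain genes summed, DEX without DNP gave a log2 fold change of -0.63 (edgeR adjusted p = 0.035) and DEX with DNP -0.54 (adjusted p = 0.063), so that the second call was lost.

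The reads of *Csf2rb2* per read of *Csf2rb* were compared within each library, a comparison chosen after the values had been seen. The ratio was 1.07 to 1.31 in the 8 libraries with DEX and 1.47 to 1.95 in the 8 without. The 2 ranges did not overlap. The mean log2 ratio was 0.24 ± 0.11 with DEX and 0.80 ± 0.16 without (SD, n = 8 each), a difference of -0.56 (2-sided exact permutation test, p = 0.00016, the smallest that 8 against 8 can give, and 0.00093 after adjustment over the 6 ratio comparisons made). The permutation shuffled libraries freely across sets, genotypes and DNP, although libraries paired by set. The adjustment does not cover the choice of this comparison after the values had been seen. All 8 same-set differences were negative, between -0.73 and -0.28. The difference was -0.52 within the numbered set and -0.60 within the lettered set.

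Taken apart by DNP, with 4 libraries against 4, the DEX difference in mean log2 ratio was -0.47 without DNP and -0.65 with DNP. Each had an exact permutation p of 0.0286 and an adjusted p of 0.0572, which is above the threshold used for calls. The DNP and genotype differences in this ratio were smaller. DNP without DEX gave a difference in mean log2 ratio of 0.23 (exact permutation p = 0.057, adjusted p = 0.086), and DNP with DEX one of 0.04 (exact permutation p = 0.63). The genotypes differed by -0.10 (exact permutation p = 0.52). Reads placed in more than 1 spot of the genome, which are not counted, took 21.5% to 25.6% of the IgE, 24.0% to 31.5% of the IgE DNP, 25.1% to 27.7% of the IgE DEX and 30.3% to 37.8% of the IgE DNP DEX libraries. Their part in the beta chain results was not tested.

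**Figure D2:**
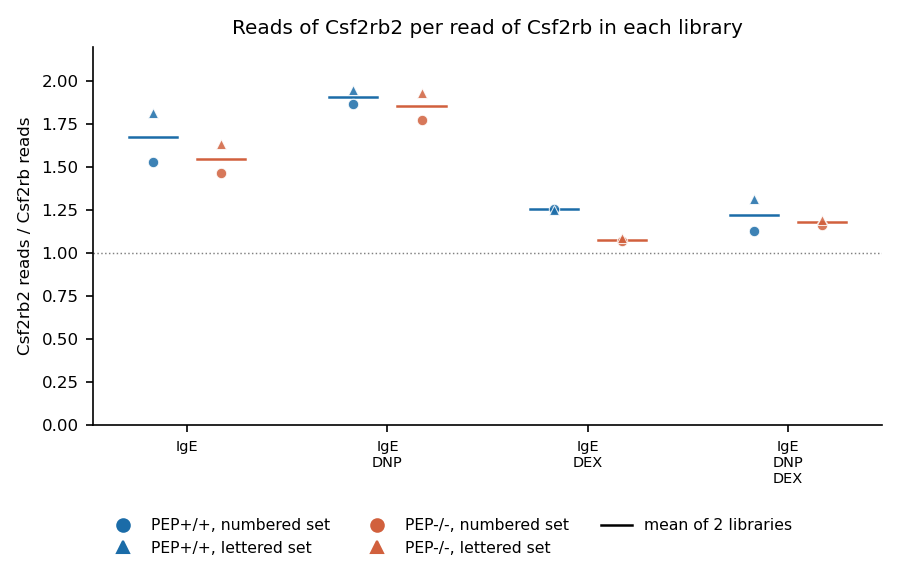
Reads of *Csf2rb2* divided by reads of *Csf2rb* are plotted for each of the 16 libraries by treatment, with blue for PEP+/+, orange for PEP-/-, circles for the numbered and triangles for the lettered set, and bars for the mean of 2 libraries. The 8 libraries with DEX lie between 1.07 and 1.31 and the 8 without between 1.47 and 1.95.

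Adding the replicate block brought further members past the threshold for DEX. Without DNP 4 of 8 were then called, against 26.7% of all genes, namely *Csf2rb2*, *Csf2rb*, *Il9r* and *Il10ra*. *Il10ra* was the only 1 of the 4 that rose, from 241 to 280 CPM after IgE to 351 to 384 CPM after IgE DEX, with no overlap. Its log2 fold change was 0.52 (SE 0.17, edgeR adjusted p = 0.087), and 0.53 under the block (edgeR adjusted p = 0.0031). With DNP 2 of 8 were called with the block, against 33.3% of all genes. The second was *Il2rg*, at -0.38 (SE 0.18, edgeR adjusted p = 0.23) and -0.37 under the block (edgeR adjusted p = 0.019), whose libraries overlapped between IgE DNP (177 to 269 CPM) and IgE DNP DEX (130 to 192 CPM). For DNP the block gave 4 of 8 without DEX and 4 of 8 with DEX, against 37.9% and 37.6% of all genes.

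**Figure D3:**
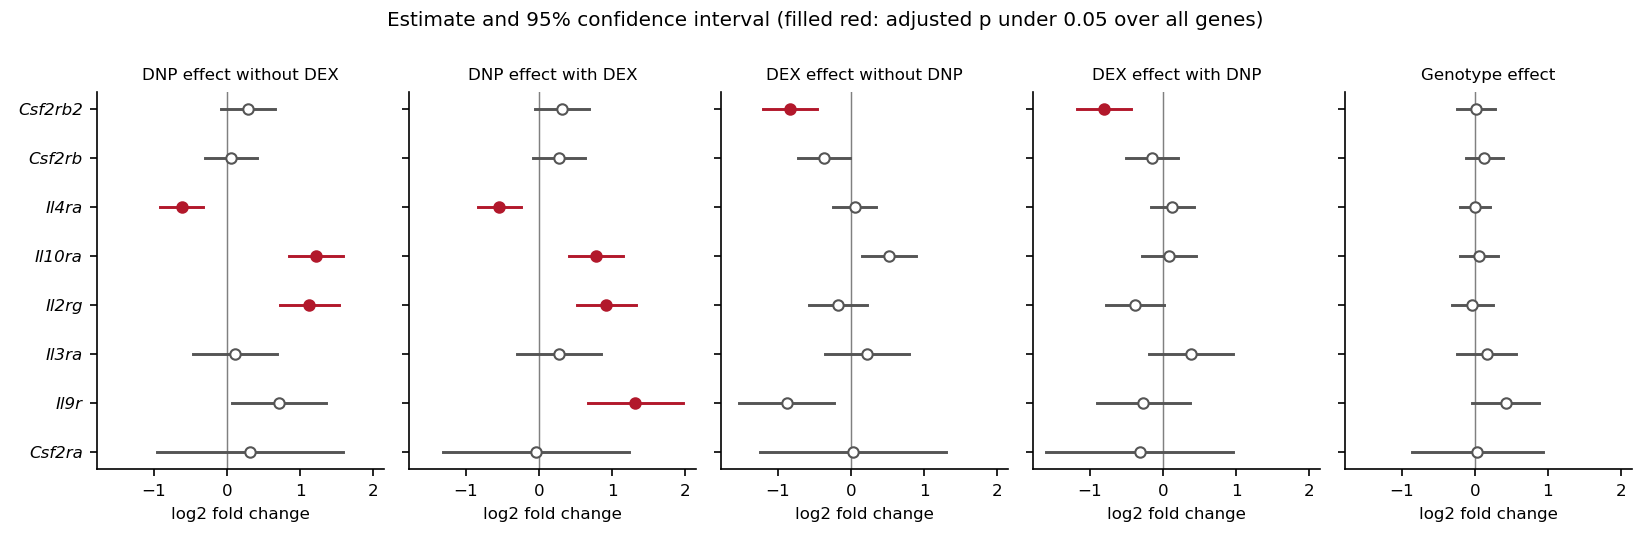
The log2 fold change of each of the 8 tested members is plotted with its 95% confidence interval for DNP without and with DEX, DEX without and with DNP, and PEP-/- against PEP+/+, from the fit without a replicate block. Filled red points passed an adjusted p of 0.05 over all genes: 3, 4, 1, 1 and 0 members from left to right.

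Whether DEX altered the size of the DNP change was tested as an interaction, and edgeR called no member, with 0 of 8 also at an unadjusted p under 0.05. DESeq2 called 0 as well. Over all genes 0.331% were called, and 1.57% with the replicate block, which called 0 members but put 2 of 8 at an unadjusted p under 0.05, *Il10ra* (edgeR unadjusted p = 0.017) and *Il9r* (0.042). Without the block the lowest p among the members was that of *Il10ra* (interaction -0.43 on the log2 scale, 95% CI -0.95 to 0.08, edgeR unadjusted p = 0.093), which was negative in all 4 same-set comparisons. For *Il9r* the interaction was 0.61 (95% CI -0.30 to 1.52), positive in all 4.

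No tested member was called for PEP loss by edgeR's quasi-likelihood test, with 0 of 8 past the threshold, 0 of 8 at an unadjusted p under 0.05 and 0 called by DESeq2, against 1.59% of all genes. *Il9r* was higher in PEP-/- than in PEP+/+ libraries in 8 of 8 comparisons of the same treatment and set, by 0.04 to 0.82 on the log2 scale. Libraries of the same set deviated together, so these 8 comparisons are not independent of each other. How many of all genes had the same sign in all 8 was not counted. The genotype difference of *Il9r* was 0.42 (95% CI -0.03 to 0.87, edgeR adjusted p = 0.41). With the replicate block it was 0.40 (adjusted p = 0.049), 1 of 8 members called against 17.4% of all genes. The difference was 0.31 in the IgE group, 0.34 with DNP, 0.48 with DEX and 0.55 with both agents, and every one of these 4 intervals included 0. The genotype differences of the other 7 tested members lay between -0.03 and 0.16. The 95% CI was -0.24 to 0.28 for *Csf2rb2*, -0.12 to 0.38 for *Csf2rb* and -0.20 to 0.21 for *Il4ra*.

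Whether the treatment response differed between genotypes was tested in 1 test with 3 numerator degrees of freedom, and edgeR called 0 members. The lowest unadjusted p was 0.69, so 0 members were also under 0.05, and DESeq2's likelihood ratio test called 0. Over all genes 0% were called with and without the block. Of the 13305 genes, 36 were at an unadjusted p under 0.05 without the block and 295 with it. Both are smaller shares than a threshold of 0.05 would give if no gene differed. The test was thus conservative here, and its high p-values do not show that the genotypes responded alike. The DNP change of *Il10ra* without DEX was 1.25 (95% CI 0.72 to 1.78) in PEP+/+ and 1.19 (0.67 to 1.72) in PEP-/- cells. That of *Il2rg* was 1.22 (0.65 to 1.79) and 1.04 (0.47 to 1.61), and that of *Il4ra* was -0.62 (-1.04 to -0.21) and -0.61 (-1.02 to -0.19). The DEX change of *Csf2rb2* without DNP was -0.80 (-1.33 to -0.28) in PEP+/+ and -0.85 (-1.37 to -0.33) in PEP-/- cells.

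The IL-3 alpha chain *Il3ra* (chromosome 14, 14346275 to 14356011, plus strand) was not called in any comparison. Its level was 60.8 to 115 CPM in the IgE libraries, 53.7 to 122 CPM with DNP, 88.7 to 116 CPM with DEX and 89.7 to 145 CPM with both. The 4 ranges overlapped. DNP gave a log2 fold change of 0.11 without DEX (95% CI -0.46 to 0.68) and 0.28 with DEX (95% CI -0.29 to 0.85), and DEX gave 0.22 without DNP (95% CI -0.35 to 0.79) and 0.39 with DNP (95% CI -0.18 to 0.96). All 4 intervals included 0.

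*Csf2ra* (chromosome 19, 61223957 to 61228429, minus strand), the alpha chain for GM-CSF, was set apart by its libraries rather than by its treatments. The numbered libraries were at 7.71 to 11.9 CPM and the lettered ones at 21.2 to 33.4 CPM, with no overlap. The lettered library was higher in 8 of 8 groups, by 2.01 to 3.57 times (median 2.59). Reads outside annotated genes, given above, were also a larger share of the lettered libraries, and their part in this difference was not tested. Markers of other cells also moved with the sets: both basophil markers summed to 48.5 to 122 CPM in the numbered and 19.8 to 45.4 CPM in the lettered libraries. The 7 macrophage and monocyte markers summed to 20.8 to 95.1 and 8.75 to 36.1 CPM. The 7 neutrophil markers summed to 1.23 to 2.37 CPM in the numbered and 0 to 0.36 CPM in the lettered libraries. Other lists went the other way: the dendritic cell markers summed to 0.147 to 1.31 CPM in the numbered and 0.407 to 3.15 CPM in the lettered libraries. The highest sums of the T and B cell markers, 0.305 and 0.825 CPM, were also in lettered libraries. The part of all these cells was not tested. In the fit without a block this gave *Csf2ra* the widest intervals of the members, such as -0.96 to 1.58 for DNP without DEX around an estimate of 0.31. With the block none of its comparisons was called either.

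The other tested members differed less between the sets. The lettered library was higher in 7 of 8 groups for *Il3ra* (0.758 to 2.13 times), *Il9r* (0.921 to 2.54 times), *Il10ra* (0.943 to 1.46 times) and *Il2rg* (0.990 to 1.52 times). It was higher in 6 of 8 for *Il4ra*, 4 of 8 for *Csf2rb2* and 2 of 8 for *Csf2rb*.

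**Figure D4:**
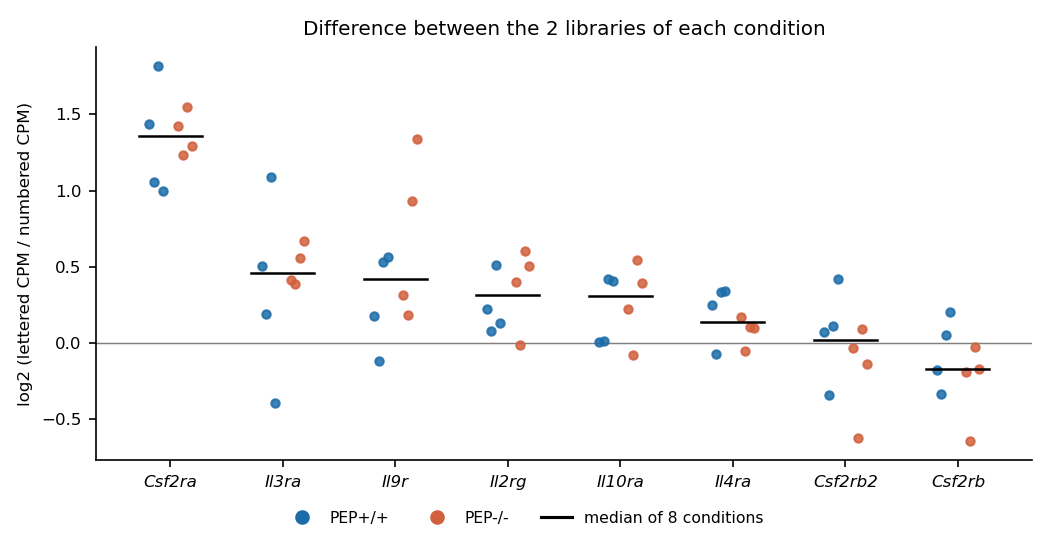
The log2 ratio of the lettered to the numbered library's CPM is plotted for each of the 8 groups and each tested member, with blue for PEP+/+, orange for PEP-/- and a bar at the median of the 8. All 8 points of *Csf2ra* lie above 0, at ratios of 2.01 to 3.57, while the medians of *Csf2rb2* and *Csf2rb* are 1.01 and 0.886.

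The last 2 members did not pass the read filter. *Il13ra1* (chromosome X, 36112110 to 36171259, plus strand), which with *Il4ra* forms the type II receptor for IL-4 and IL-13, had 0 reads in all 16 libraries. Against 219542333 reads in all, a count of 0 allows a level of up to 0.0137 CPM, a limit that covers counting error alone. *Il6ra* (chromosome 3, 89864059 to 89913196, minus strand), the binding chain for IL-6, had 9 reads in all. Of these, 8 fell in the 4 IgE DNP DEX libraries, 1 to 4 in each, and 1 in an IgE DNP library, while the 8 libraries without DNP had 0. At this depth *Il6ra* was left out of the main fit, and it was tested in the alternative with no filter on low counts.

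Partners of the members on the cell surface were taken as a list of 26 receptor genes, of which 20 were tested. DNP without DEX called 4, all higher, and the 3 with the largest change were *Ifngr2*, a chain of the interferon gamma receptor (1.89 on the log2 scale), *Il7r*, the IL-7 binding chain (1.87), and *Il2ra*, the IL-2 alpha chain (1.87). That is 4 of 20, against 16.7% of all genes. With the block 8 were called, 4 of them lower, against 37.9%. DNP with DEX called 5, among them *Il6st*, the signalling chain that pairs with *Il6ra* (-2.16), *Ifngr2* (2.08) and *Il7r* (1.41), and 13 with the block, against 12.6% and 37.6% of all genes. DEX without DNP called 6, all higher, led by *Lifr*, the LIF receptor (3.21), *Il6st* (3.13) and *Il2ra* (3.11), and 13 with the block, against 9.37% and 26.7%. DEX with DNP called 4, all higher, led by *Lifr* (4.34), *Il2ra* (1.81) and *Il7r* (1.70), and 12 with the block, against 10.7% and 33.3%. *Lifr* had 0 to 125 reads and *Il6st* 2 to 272 over the 16 libraries. Libraries at or near 0 leave the size of their folds uncertain. The list's median log2 fold change was -0.02, 0.00, 0.26 and 0.37 in these 4 comparisons. The interaction and the genotype difference called 0 of 20, against 0.331% and 1.59% of all genes, and 1 and 3 with the block, against 1.57% and 17.4%.

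Of 11 ligand genes 8 were tested, and DNP without DEX called 7, all higher, against 16.7% of all genes. *Csf2*, which encodes GM-CSF, had 0 to 1 reads in the 4 IgE libraries and 40 to 190 in the 4 IgE DNP libraries. *Il9* had 0 reads in the IgE libraries and 4 to 92 after IgE DNP. *Il13* had 41 to 70 reads and then 3246 to 6555, a log2 fold change of 6.70 (edgeR adjusted p = 3.7e-07). Fitted folds of *Csf2* and *Il9* are not given, since libraries at 0 leave them without a scale, nor is the median over the ligands, for the same reason.

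With DEX, DNP called 3 of the 8 ligands, all higher: *Csf2*, with 0 reads after IgE DEX and 2 to 19 after IgE DNP DEX, *Il13* (5.23) and *Il6* (1.73), and 6 with the block, against 12.6% and 37.6% of all genes. DEX without DNP called 1, *Il13* (-2.89), against 9.37%. DEX with DNP called 6, all lower, against 10.7%: *Il9* fell to 0 to 1 reads, *Il5* from 6 to 11 reads to 0 to 1, and *Csf2* from 40 to 190 reads to 2 to 19. The interaction called 1, *Il6* (-2.46), against 0.331%. *Il3* itself had 0 to 6 reads in any library, and *Kitl*, which encodes stem cell factor, 0 to 1. No ligand was called between genotypes, and 2 were with the block, against 1.59% and 17.4%.

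All 11 JAK and STAT genes were tested. DNP without DEX called 5, with *Jak2* (1.65), the kinase of the beta chain receptors, *Stat5a* (0.70) and *Jak1* (0.66) as the largest, and 8 with the block, against 16.7% and 37.9% of all genes. DNP with DEX called 4, with *Jak1* (0.95), *Stat5b* (-0.66) and *Stat6* (0.51), the STAT of the IL-4 receptor, as the largest, and 7 with the block, against 12.6% and 37.6%. DEX without DNP called 4, all higher, led by *Stat4* (1.00), *Jak2* (0.82) and *Jak1* (0.75), against 9.37%. DEX with DNP called *Stat4* (1.05) and *Jak1* (1.04), and 5 genes with the block, against 10.7% and 33.3%. The list's median log2 fold change was 0.08, -0.07, 0.17 and 0.02 in these 4 comparisons. The genotype difference called 0, and 5 with the block, against 1.59% and 17.4% of all genes. The interaction called 0, and 1 with the block, against 0.331% and 1.57%.

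Of the 21 feedback inhibitors and target genes, all tested, DNP without DEX called 8, all higher, and 12 with the block, against 16.7% and 37.9% of all genes. The largest were *Socs3*, a feedback inhibitor of JAK signalling (3.74), *Irs2*, an adaptor that IL-4 receptors use (2.58), and *Cish*, a STAT5-induced inhibitor (2.38). DNP with DEX called 4, all higher, led by *Socs3* (2.45), *Myc* (1.59) and *Bcl6* (1.49), and 11 with the block, against 12.6% and 37.6%. DEX without DNP called 4, of which *Irs2* (2.48), *Socs1* (1.59) and the survival kinase *Pim3* (1.02) were the largest, and 10 with the block, against 9.37% and 26.7%. DEX with DNP called *Pim3* (0.85) and *Ptpn6*, a phosphatase that dampens cytokine receptor signals (-0.40), and 9 genes with the block, against 10.7% and 33.3%. The list's median log2 fold change was 0.55, 0.11, 0.23 and -0.15 in these 4 comparisons. PEP loss called 1, *Pim2* (-1.23), and 7 with the block, against 1.59% and 17.4%. The interaction called 0, and 4 with the block, against 0.331% and 1.57%.

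The interaction counts of 0 by edgeR stood beside 2 of 20 partner receptors, 2 of 11 JAK and STAT genes and 2 of 21 feedback and target genes at an unadjusted p under 0.05, and DESeq2 called 0, 1 and 1 of them. For the genotype difference 1 partner receptor, 3 of the 8 ligands and 4 JAK and STAT genes were at an unadjusted p under 0.05, and DESeq2 called 0, 1 and 2. The genotype by treatment test called 0 genes of any list with either tool, with 1 feedback and target gene at an unadjusted p under 0.05.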

How the data were processed

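Libraries from 16 BMMC samples were made with a stranded mRNA kit and sequenced as paired reads of 50 bases. Per the study's methods and the labels, the authors aligned reads with TopHat2 to GRCm38 and deposited raw HTSeq read counts per gene. The strand setting of the counting was not given in the sources used here. The 5 rows that name no gene, which took 29.1% to 49.6% of all reads, were kept out of library sizes and tests. Symbols and positions were matched for 96.2% of the 39179 gene IDs.

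Counts were filtered with filterByExpr (minimum count 10), scaled by TMM and fitted in edgeR 4.0.16 (R 4.3.3) with 1 mean for each of 8 groups over all 16 libraries, leaving 8 residual degrees of freedom. Effects were averaged over genotypes, or over treatments for genotype. CPM are on TMM-scaled library sizes. Exact permutation tests were run in SciPy 1.17.1. Alternatives were DESeq2 1.42.0, its size factors in edgeR, no filter, the groups compared alone, a replicate block, summed beta chains and each library left out. The fits were also run on simulated data, and no error rate from those runs is given here. Libraries of 1 group differed by far more than counting noise. Where nothing says that libraries came from separate cultures, p-values measure only the spread between these samples.

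The sample titles number or letter the libraries, and deviations from group means correlated between same-set libraries in all 28 pairs of groups (r 0.45 to 0.80, median 0.72), so the block pairs the libraries. Same-set differences, wherever counted above, are therefore not independent of each other. What the sets stand for was not given in the sources used here. The members and lists were chosen with earlier results of these data known. All members were described, and of each list up to 3 called genes with the largest change were named per comparison. The 5 genes most like the widest-ranging member were also named. Sums of marker genes were used to check the cells.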

Additional observations from a re-analysis of the deposited data

Results flagged for a closer look

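The DEX change of *Csf2ra* without DNP went in opposite directions in the genotypes. It was upward in both PEP+/+ sets (0.23 and 0.61 on the log2 scale) and downward in both PEP-/- sets (-0.13 and -0.32), a difference of -0.65 between the mean changes. This difference itself was not tested. The test of the treatments together by genotype gave an unadjusted p of 0.94 for *Csf2ra* with edgeR, and of 0.12 with the replicate block.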

How the results depend on the processing

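With the replicate block, 4 members were called for DEX without DNP in place of 1, 2 for DEX with DNP in place of 1, and 1 for the genotype difference in place of 0, and the block changed no other call than these and *Il9r* for DNP without DEX. With no filter on low counts 9 members were tested, and DNP without DEX called 4 in place of 3, with *Il9r* added, and DNP with DEX 3 in place of 4. For DEX without DNP, 2 members were called with no filter on low counts, 3 when only the groups compared were fitted and 3 by DESeq2, which added *Il9r* and *Il10ra*. For DEX with DNP, 0 were called once *Csf2rb* and *Csf2rb2* were summed. DNP with DEX lost *Il4ra* with no filter (-0.54, adjusted p = 0.099) and with only the groups compared (-0.53, adjusted p = 0.086), and its count of 4 fell to between 2 and 4 when 1 library was left out. It was 2 without the numbered PEP-/- IgE DEX, the lettered PEP+/+ IgE DEX or the lettered PEP-/- IgE DNP DEX library. DEX without DNP called 1 to 2 when 1 library was left out, 2 without either PEP-/- IgE DNP DEX library.

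Leaving out 1 library turned the sign of estimates that were not called. For *Csf2ra* the log2 ranges were -0.29 to 0.76 (DNP without DEX), -0.42 to 0.33 (DNP with DEX), -0.33 to 0.48 (DEX without DNP), -0.69 to 0.30 (DEX with DNP), -0.80 to 0.27 (interaction) and -0.21 to 0.33 (genotype). For *Il3ra* they were -0.22 to 0.32 (DNP without DEX) and -0.0295 to 0.52 (interaction). For *Il4ra* they were -0.00081 to 0.12 (DEX without DNP) and -0.0402 to 0.0473 (genotype). The range was -0.0175 to 0.25 for *Il10ra* and -0.66 to 0.0256 for *Il9r* (DEX with DNP), and -0.11 to 0.20 for *Csf2rb2* (interaction). For genotype it was -0.0657 to 0.092 for *Csf2rb2*, -0.0186 to 0.11 for *Il10ra* and -0.12 to 0.0319 for *Il2rg*. The ratio of *Csf2rb2* to *Csf2rb* had a log2 difference with DEX of -0.59 to -0.53 over the 16 such runs, which were chosen after seeing the data. Over all genes the genotype comparison called 57 to 2310 and the interaction 12 to 209 across the alternatives, against 212 and 44. DNP without DEX called 1390 to 5042, against 2216, DNP with DEX 927 to 5007, against 1678, DEX without DNP 845 to 3548, against 1247, and DEX with DNP 805 to 4429, against 1418. The genotype by treatment test called 0 to 24, the 24 with no filter.

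With 2 libraries per group the intervals are wide, and a call that was missed does not show that a receptor was unchanged. The alternative with only the groups compared could not be made for comparisons that use all groups.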
